A study of Mus musculus with 4 samples.

Results

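Arginine is divided in immune cells between a few enzymes, and 6 of the 19491 genes listed in these data stand for that division: *Arg1* and *Arg2*, the cytosolic and the mitochondrial arginase, *Nos2*, the inducible nitric oxide synthase, *Slc7a2*, a transporter that carries arginine into the cell, *Odc1*, ornithine decarboxylase, and *Ass1*, argininosuccinate synthase. They were chosen by name, and all 6 are listed in all 4 libraries. The libraries hold CD45+ cells, that is hematopoietic cells, sorted from the brain or the dura mater of 8-week-old C57BL/6J mice on day 3, without a transgene or drug named in the labels. Photothrombotic injury (PTI), in which light closes vessels after a photosensitizing dye, gives the D3 libraries. The other 2 libraries carry the label CT and are treated here as the study's sham-operated S3 groups. With 1 library for each tissue and condition, and the number of mice behind each not given in the sources used here, no difference between libraries could be tested against the spread between animals.

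Arginases split arginine into urea and ornithine, and nitric oxide synthase turns the same arginine into nitric oxide and citrulline, so that the enzymes draw on 1 pool. Ornithine decarboxylase makes putrescine, the first polyamine, from ornithine. Argininosuccinate synthase starts the way back from citrulline to arginine. In macrophages, *Arg1* is known for its induction by type 2 cytokines, by lactate and by low oxygen, and *Nos2* for its induction by interferon and bacterial products. Group 2 innate lymphoid cells (ILC2) are known to hold *Arg1* at rest.

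The genes lie, in the coordinates of GRCm38, at chr10:24915221-24927484 on the minus strand (*Arg1*), chr12:79130777-79156301 (*Arg2*), chr11:78920787-78960254 (*Nos2*), chr8:40862396-40922308 (*Slc7a2*), chr12:17544794-17551505 (*Odc1*) and chr2:31470207-31520672 (*Ass1*), the last 5 on the plus strand. All are protein-coding. Levels are given as CPM, the unique transcript tags (UMIs) of a gene per 1000000 UMIs of the cells described, with the exact Poisson 95% interval in brackets. Shares of cells with a UMI carry the exact binomial 95% interval. Both cover counting error only. A gene at 0 is set to 3 UMIs where a ratio needs it, and the ratio is then a bound by that rule, not a 95% limit.

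After filters, 14103 cells remained, 3619 of brain S3, 4439 of brain D3, 3438 of dura mater S3 and 2607 of dura mater D3, with a median of 8251, 14271, 9310 and 14156 UMIs per cell. Between 91.8% and 95.5% of them held a UMI of *Ptprc*, which encodes CD45. The cells fell into 28 clusters, of which 4 stayed unnamed and the others took 21 class names from lists of marker genes that hold none of the 6 genes, and the 6 genes took no part in the clustering. The infiltrating-like macrophages were 1472 cells of brain D3 and 35 of dura mater D3, against 10 in brain S3 and 15 in dura mater S3. Of their 14 markers, 13 were found in at least 10% of the brain D3 cells and 12 in at least 10% of the dura mater D3 cells. The latter were weaker in leading markers. *Gpnmb*, *Spp1* and *Fabp5* summed to 2583 CPM in dura mater D3 cells with *Arg1* and 757 in the others. In brain D3 these sums were 12296 and 6569. Macrophages below means Lyve1+ and Lyve1- macrophage-like cells together.

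The level of each gene in each class and library differed among the genes. *Arg1* stood highest in infiltrating-like macrophages of the D3 libraries and in ILC2-like cells of the S3 libraries. *Arg2* stood highest in granulocyte-like cells, *Odc1* in ILC2-like and gamma-delta T-like cells, and *Ass1* in dividing, dendritic and T-like cells. *Nos2* and *Slc7a2* were close to 0 nearly everywhere, with 189 and 231 UMIs in all kept cells, against 65436 for *Arg1*, 7555 for *Arg2*, 17136 for *Odc1* and 8182 for *Ass1*.

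**Figure D1:**
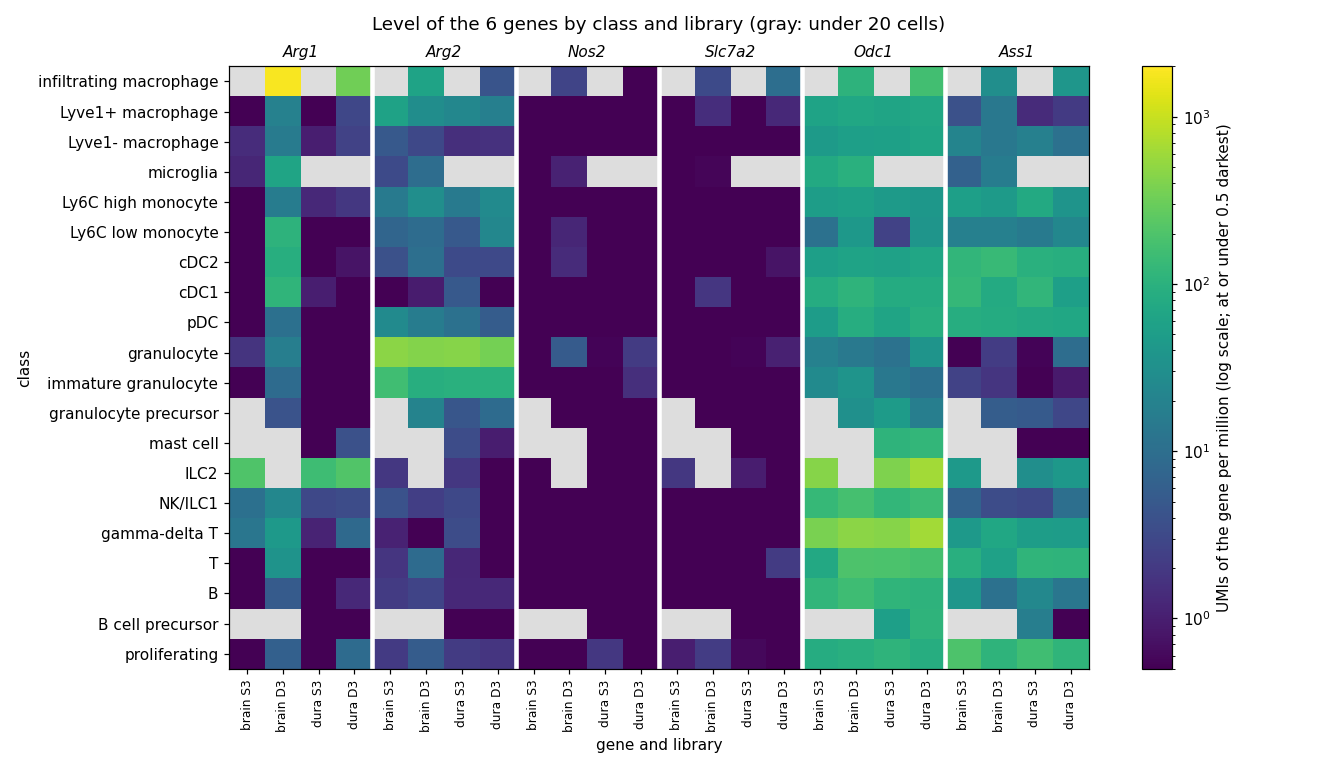
Level of the 6 genes (CPM, log color scale) in each class (rows) of each library (columns, grouped by gene), with gray where a class has under 20 cells in a library. The brightest cell is *Arg1* in infiltrating-like macrophages of brain D3 at 1861 CPM, *Arg2* is bright in the granulocyte row of all 4 libraries, and *Odc1* in the ILC2 and gamma-delta T rows.

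In brain D3, *Arg1* was at 1861 CPM (1846 to 1875) in the 1472 infiltrating-like macrophages, of which 1155, or 78.5% (76.3 to 80.5), held a UMI. In the 362 macrophages of brain S3 there were 4 *Arg1* UMIs in 2 cells, a level of 0.875 (0.238 to 2.24). The log2 ratio between them was 11.05 (9.70 to 12.93). The other libraries held few such cells to set beside them. The 35 infiltrating-like macrophages of dura mater D3 were at 330 (289 to 375), with a UMI in 10 cells, and 1 of these cells held 46.8% of their *Arg1* UMIs. The 10 such cells of brain S3 had 0 *Arg1* UMIs, and of the 15 in dura mater S3, 1 cell held 106 UMIs and the others none. That cell held 37.9% of all *Arg1* UMIs in dura mater S3. The brain D3 cells thus stood far above every other class in their own library, and together they held 96.9% of its *Arg1* UMIs while they held 46.3% of its UMIs of all genes.

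Over the whole of brain D3, *Arg1* was at 889 CPM (882 to 896), against 4.56 (3.90 to 5.29) in brain S3, a log2 ratio of 7.61 (7.39 to 7.83). In the dura mater it was at 14.7 (13.5 to 15.9) in D3 and 6.72 (5.96 to 7.55) in S3, a log2 ratio of 1.12 (0.92 to 1.33). In such totals more cells of a class and more RNA per cell cannot be told apart.

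All 6 genes were at least 2-fold higher in infiltrating-like macrophages of brain D3 than in macrophages of brain S3, and 0 were lower, where 7.45% of the 10612 genes with at least 50 UMIs were at least 2-fold higher and 15.5% at least 2-fold lower. This count rests on values close to 2-fold for 3 of them. *Arg2* was at 62.1 against 26.5 (log2 ratio 1.23, 0.97 to 1.51), *Odc1* at 105 against 51.9 (1.02, 0.83 to 1.21) and *Ass1* at 30.4 against 14.2 (1.09, 0.73 to 1.48). *Nos2* at 2.71 and *Slc7a2* at 3.19 stood against 0 UMIs, so that their log2 ratios were at least 2.05 and at least 2.28. *Odc1* and *Ass1* did not stay past 2-fold under several other settings. With doublets kept, for example, their log2 ratios were 0.69 and 0.82, and the count was 4 of 6. The compared cells also differed in depth, with a median of 21376 and 11397 UMIs per cell, and in the summed level of 12 immediate-early and heat shock genes, which was 8810 CPM in infiltrating-like macrophages of brain D3 and 24239 in macrophages of brain S3. The part of either in the ratios was not tested.

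The same cells were then set beside other myeloid classes of the same library. These differed in median depth, with 21376 UMIs per cell in infiltrating-like macrophages, 13583 in Ly6C high monocyte-like and 10733 in microglia-like cells, and the part of depth was not tested. Against Ly6C high monocyte-like cells, the blood cells from which such macrophages are known to arise, *Arg1* was at 1861 against 16.5 (12.4 to 21.5), a log2 ratio of 6.82 (6.43 to 7.22). *Arg2* was at 62.1 against 30.3 (1.03, 0.75 to 1.34) and *Slc7a2* at 3.19 against 0.30, which is 1 UMI (3.41, 0.90 to 8.73). *Nos2* stood against 0 UMIs in 237 cells, a log2 ratio of at least 1.59. A count of 0 cells, taken as up to 3 of 237, allows a share of cells with a UMI of up to 1.27%, which is no limit on cells that express the gene. This direction did not hold at clustering resolution 0.3, where the log2 ratio was -1.50, nor with each cell placed by its own markers (-1.11). The *Arg1* log2 ratio was 4.30 with unfiltered cells, 4.71 at that resolution and 1.88 by own markers, with 377 cells then called monocytes. *Odc1* was at 105 against 55.9 (0.91, 0.70 to 1.13). *Ass1* went the other way, at 30.4 in the macrophages and 46.3 in the monocytes (-0.61, -0.85 to -0.35). So 4 of the 6 genes were at least 2-fold higher and 0 at least 2-fold lower, where 15.2% of 10385 genes were higher and 7.27% lower by that much. Against microglia-like cells of brain D3, *Arg1* was 29.4-fold and *Arg2* 6.45-fold higher, while *Odc1* differed little, at 105 and 96.1 (log2 ratio 0.13, 0.03 to 0.23).

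*Arg1* was spread unevenly over the infiltrating-like macrophages of brain D3. Of the 1472 cells, 317 (21.5%) had 0 UMIs, 319 had 1 to 9, 612 had 10 to 99 and 224 (15.2%) had 100 or more. Those 224 cells held 57.4% of the *Arg1* UMIs, and the highest cell held 426. In units of the cell's own total, the quartiles were 51.8, 676 and 2771 CPM, and the 90th percentile was 5583.

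**Figure D2:**
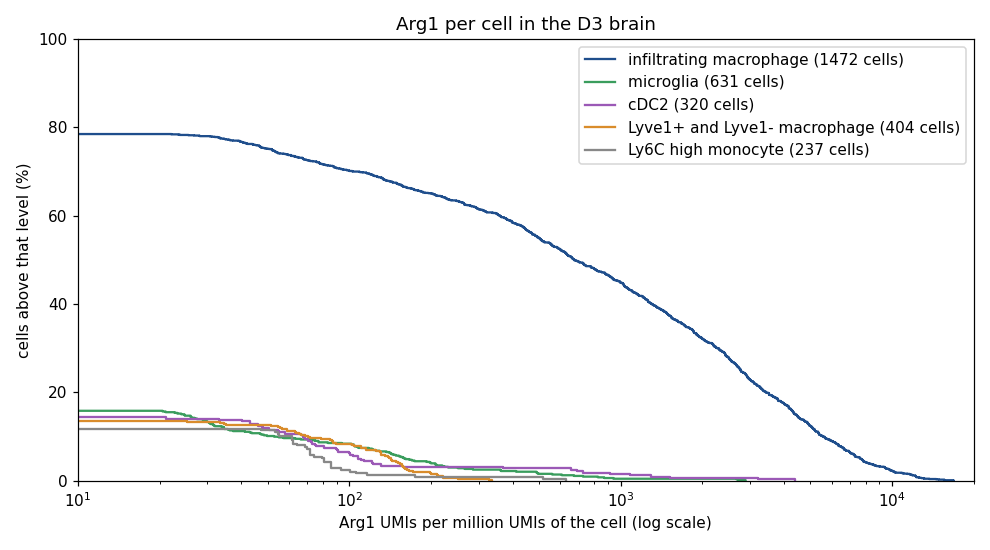
Share of cells (vertical axis, %) above each *Arg1* level of a cell (horizontal axis, CPM of that cell, log scale) in 5 classes of brain D3. The infiltrating-like macrophages start at 78.5% and their median lies at 676 CPM, while the other classes start between 11.8% and 15.8% and their curves lie near 0 above 1000.

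To see which genes went with *Arg1* in these cells, 1422 of them were thinned to 10000 UMIs each, and 50 shallower cells were left out. An *Arg1* UMI was then found in 1049 cells. *Arg2* had a UMI in 40.5% (37.5 to 43.6) of the cells with *Arg1* and in 23.1% (18.9 to 27.7) of those without. *Nos2* had one in 3.05% (2.10 to 4.28), or 32 cells, against 0.536% (0.0650 to 1.92), or 2 cells, so that the few *Nos2* cells lay mostly among those with *Arg1*. *Odc1* had a UMI in 50.05% against 44.0% and *Slc7a2* in 3.15% against 2.41%, with intervals that overlap. *Ass1* showed the reverse, with a UMI in 12.1% (10.2 to 14.2) of the cells with *Arg1* and 28.2% (23.6 to 33.0) of those without. Of genes picked by hand, *Ly6c2* and *Ccr2*, which mark recently arrived monocytes, had a UMI in 17.0% and 43.0% of the cells with *Arg1* and in 36.2% and 56.0% of the others. *Chil3*, from the same list of monocyte markers, showed no such difference, at 47.2% (44.1 to 50.3) and 48.3% (43.1 to 53.5). *Gpnmb*, a lysosomal glycoprotein of lipid-laden macrophages, was found in 78.6% and 58.7%, and *Hmox1*, heme oxygenase, in 92.9% and 83.1%. Cells of 1 library are not replicates, and these shares are a description of that library.

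*Arg1* was also higher in D3 than in S3 in several other classes of the brain, though from few cells. In microglia-like cells it was at 63.3 (58.6 to 68.2) in D3, in 100 of 631 cells, and at 1.2 (0.441 to 2.62) in S3, in 1 of 426 cells (log2 ratio 5.72, 4.59 to 7.17). In cDC2-like cells (type 2 conventional dendritic cells) it was at 91.4 (83.2 to 100.2) in 46 of 320 cells, and 0 of 143 cells of S3 held a UMI. In Ly6C low monocyte-like cells it was at 107 in 21 of 196 cells, and in cDC1-like cells at 114 in 10 of 50, again with 0 UMIs in S3. The UMIs were concentrated, with 94.6% of them in the 10% of microglia-like cells that held most and 96.9% in the same share of cDC2-like cells.

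These values were read against lymphocytes, which should lack *Arg1*. Among T-like and B-like cells of brain D3, 7 of 206 held a UMI, or 3.40% (1.38 to 6.88), at a median of 5169 UMIs per cell, and 1 cell held 81.8% of the UMIs. In S3 the share was 0.185% in brain and 0.225% in dura mater. With every cell thinned to 2000 UMIs, the share in T-like and B-like cells of brain D3 was 2.43%. Infiltrating-like cells were at 58.7%. The other classes set beside it were Ly6C high monocyte-like (1.27%), Lyve1+ macrophage-like (2.27%), granulocyte-like (2.52%), Lyve1- macrophage-like (3.07%) and Ly6C low monocyte-like cells (4.08%). Next came microglia-like (4.12%), cDC2-like (4.69%), NK/ILC1-like (5.71%), cDC1-like (8.00%) and gamma-delta T-like cells (8.89%). The background rests on few cells and no interval was computed for thinned shares, so whether these classes stood above it was not determined. The unthinned shares of the classes set beside that background ran from 9.43% to 78.5%.

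In some of those classes the *Arg1* cells also carried more of the genes that mark infiltrating-like macrophages. In microglia-like cells of brain D3, the summed level of the 14 markers was 18605 CPM in cells with an *Arg1* UMI and 11440 in the others, and *Gpnmb* was found in 37.0% and 17.7% of them, at a median depth of 27924.5 and 9592 UMIs per cell. In cDC2-like cells the summed level was 8730 against 4893, and in Ly6C low monocyte-like cells 9542 against 5898. In Ly6C high monocyte-like cells both sums were closer, at 12084 and 10592, with *Gpnmb* in 14.3% and 16.3%. In granulocyte-like (3423 and 3562) and NK/ILC1-like cells (1493 and 1712) the sum was lower in the *Arg1* cells. The part of these markers and of depth in the *Arg1* values was not tested.

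In the other 3 libraries *Arg1* was also found in ILC2-like cells, a cluster led by *Calca*, *Gata3* and *Areg* among others. Their level was 203 (166 to 245) in brain S3, 150 (127 to 176) in dura mater S3 and 208 (182 to 236) in dura mater D3. A UMI was found in 40 of 69 cells, or 58.0% (45.5 to 69.8), in 60 of 116, or 51.7% (42.3 to 61.1), and in 82 of 128, or 64.1% (55.1 to 72.3). The intervals of the shares overlap among the 3 libraries. In brain D3, 12 of only 19 ILC2-like cells held one. These cells held 1.39% of all UMIs of brain S3 and 62.0% of its *Arg1* UMIs, and in dura mater S3 2.49% and 55.7%. In dura mater D3 they held 2.76% of all UMIs and 39.2% of the *Arg1* UMIs, and the 35 infiltrating-like macrophages, at the higher level of 330, held an equal share of the latter.

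The gamma-delta T-like cells of the same libraries, which are of like depth, gave the contrast. *Arg1* was at 13.1 in brain S3, 1.14 in dura mater S3 and 8.5 in dura mater D3, so that ILC2-like cells were 15.4-fold, 132-fold and 24.4-fold higher, the second against 1 UMI. *Gpnmb* was found in 0 of the ILC2-like cells in these 3 libraries, with or without *Arg1*. It was also found in 0 of the 10 infiltrating-like macrophages of dura mater D3 with *Arg1*, so it does not separate the *Arg1* cells of these classes. Between dura mater D3 and S3, *Arg1* in ILC2-like cells had a log2 ratio of 0.47 (0.17 to 0.77), short of 2-fold, and NK/ILC1-like cells were at 3.40 and 3.01.

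**Figure D3:**
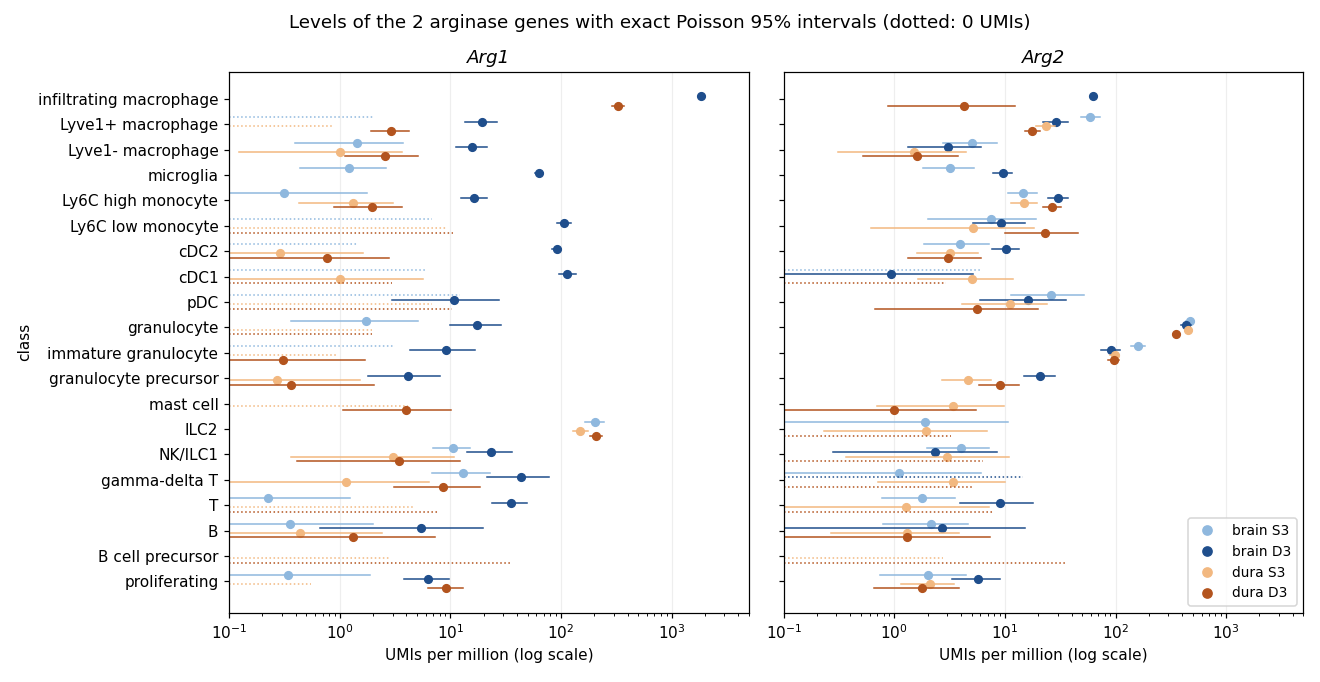
Levels of *Arg1* (left) and *Arg2* (right) in CPM (log scale) by class, with a point and an exact Poisson 95% interval for each library and a dotted line up to the upper limit where a class had 0 UMIs. *Arg1* lies highest in infiltrating-like macrophages of brain D3 (1861) and between 150 and 208 in ILC2-like cells, and *Arg2* lies between 354 and 468 in granulocyte-like cells of every library.

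*Arg2* was the arginase of granulocytes in both tissues and both conditions. In mature granulocyte-like cells of the brain it was at 468 (436 to 501) in S3 and 434 (392 to 479) in D3, in those of the dura mater at 450 (420 to 482) in S3 and 354 (328 to 382) in D3, and between 82.8% and 86.2% of these cells held a UMI. The first 3 of these intervals overlap, and that of dura mater D3 lies under them. In immature granulocyte-like cells, marked by *Ltf*, *Ngp* and *Lcn2*, it was at 159 and 90.9 in the brain and at 98.1 and 96.4 in the dura mater, S3 first. Granulocyte precursor-like cells of the marrow type, marked by *Elane* and *Mpo*, were at 20.7 in brain D3, and in the dura mater at 4.64 in S3 and 9.06 in D3. The level was therefore higher at each later stage in every library in which both were measured, by 2.94-fold to 4.77-fold from immature to mature cells. *Arg1* in mature granulocyte-like cells was at 17.5 in brain D3, with no cell over 2 UMIs, and at 1.74 or 0 in the other libraries.

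Within the granulocyte-like cells of dura mater D3, *Arg2* differed with the share of granulocyte markers. Of those 204 cells, 30 had under 10% of their UMIs in the 11 granulocyte markers, and *Arg2* was at 52.8 in them, against 608 in the 25 such cells of dura mater S3. In the other 174 cells it was at 451 (417 to 487), against 442 (412 to 474) in the 328 such cells of dura mater S3, a log2 ratio of 0.03 (-0.12 to 0.18). The same 30 cells held most of the *Odc1* UMIs (46 of 69). The log2 ratio of *Odc1* between D3 and S3 in all granulocyte-like cells of the dura mater was 1.71 (0.99 to 2.49), and 0.84 (-0.14 to 1.86) in those with at least 10% markers. In granulocyte-like cells of the brain with under 10% markers, *Arg2* was at 450 in S3 and 502 in D3. The markers include *Mmp8*, whose levels ran close to those of *Arg2* (r = 0.91). The split at 10% was not among the settings chosen at the start, and its part in the lower value of dura mater D3 was not tested. Of the genes compared in granulocyte-like cells, 1 of 2 members in the dura mater and 0 of 1 in the brain were past 2-fold, where 17.4% and 6.47% of all genes were.

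*Arg2* in Lyve1+ macrophages was found mostly in cells with granulocyte transcripts. Lyve1+ macrophage-like cells were at 59.3 (48.6 to 71.7) in S3 and 29.0 in D3 of the brain, and at 23.5 in S3 and 17.7 in D3 of the dura mater. In the 31 such cells of brain S3 with an *Arg2* UMI, all 11 granulocyte markers were found in at least 10% of cells and summed to 84651 CPM, against 3889 in the cells without. Of the 141 cells, 107 had under 1% of their UMIs in these markers, and they held 0 *Arg2* UMIs, which allows a level of up to 3.19, while the other 34 were at 166 (136 to 200). In the low-marker cells of dura mater S3, brain D3 and dura mater D3, *Arg2* was at 4.05, 2.38 and 1.84.

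Infiltrating-like macrophages of brain D3 differed in this. Among their 1472 cells, 1449 had under 1% of their UMIs in granulocyte markers, and *Arg2* was at 60.9 (58.2 to 63.6) in these, in 745 cells (51.4%). The macrophages of brain S3 under the same limit were at 0.519 (0.0629 to 1.88), 2 UMIs in 323 cells. The log2 ratio of *Arg2* between them was then 6.87 (5.02 to 9.92) in place of 1.23. This split was chosen after the values were seen.

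Ly6C high monocyte-like cells of the brain held *Arg2* at 14.5 (10.6 to 19.4) in S3 and 30.3 (24.7 to 36.9) in D3, and those of the dura mater at 14.9 (11.3 to 19.4) and 26.7 (22.2 to 31.9). The D3 intervals lie above the S3 intervals in both tissues, with log2 ratios of 1.06 (0.54 to 1.60) in brain and 0.84 (0.37 to 1.32) in dura mater. The granulocyte markers summed in the D3 cells with *Arg2* to 12778 in brain and 12988 in dura mater, against 4089 and 3929 in those without. The immediate-early and heat shock sum was 9188 in D3 and 18721 in S3 of the brain, and 7474 and 11508 in the dura mater. The part of either was not tested. In these cells 2 of 4 members compared in brain and 1 of 3 in dura mater were past 2-fold, where 5.17% and 2.66% of all genes were.

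*Nos2* was hardly detected. Brain S3 held 4 UMIs, all in the 20 endothelial-like cells, and dura mater S3 held 31, of which 13 were in 1 cell. Brain D3 held 145 and dura mater D3 held 9. Of those in brain D3, 91 were in infiltrating-like macrophages, at 2.71 (2.18 to 3.33), in 43 of 1472 cells or 2.92% (2.12 to 3.91), and 1 cell held 20 of them. Microglia-like cells of brain D3 held 12 UMIs in 8 of 631 cells, and granulocyte-like cells 5 in 4 of 159. Lyve1+ and Lyve1- macrophage-like cells, Ly6C high monocyte-like cells and T-like and B-like cells held 0 in all 4 libraries.

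An unnamed cluster of 138 cells of brain D3, led by *Cxcl3*, *Igfbp6*, *Acod1* and *Siglecf*, had the highest *Nos2* level of that library, with an interval that overlaps that of the endothelial-like cells (17.1, from 3 UMIs in 24 cells). It was at 24.8 (12.4 to 44.4), or 11 UMIs in 4 cells, at a median depth of 3008 UMIs per cell. *Arg2* in that cluster was at 176 (139 to 220), in 50 of 138 cells. Another unnamed cluster, of 79 cells in brain D3 and led by *Ace*, *Treml4* and *Cd300e*, had *Nos2* at 9.20. It held 8.97% of the *Nos2* UMIs of brain D3, against 7.59% in the cluster with *Siglecf*.

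In brain D3 most *Slc7a2* UMIs lay in the class that held most *Arg1* UMIs, but at a very low level. There, 107 of its 128 UMIs (83.6%) were in infiltrating-like macrophages, at 3.19 (2.61 to 3.85), in 80 of 1472 cells or 5.43% (4.33 to 6.72). That class also held 46.3% of the library's UMIs of all genes. Dividing cells, with *Arg1* at 6.29, were at 2.20, cDC1-like cells at 1.86 and Lyve1+ macrophage-like cells at 1.47. Microglia-like cells held 6 UMIs, and T-like and B-like cells 0. In the dura mater, Lyve1+ macrophage-like cells had 12 UMIs in 12 of 558 cells of D3 and 2 in 2 of 347 cells of S3. In all cells of the dura mater the level was 1.55 (1.19 to 1.98) in D3 and 0.432 (0.256 to 0.683) in S3, and 1 cell of D3 held 14 of its 63 UMIs. The 35 infiltrating-like macrophages of dura mater D3 had 7 UMIs, all in 1 cell.

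*Odc1* was found in every class, and highest in unconventional lymphocytes. In gamma-delta T-like cells it was at 381 (342 to 423) in brain S3, 467 (387 to 559) in brain D3, 446 (403 to 493) in dura mater S3 and 629 (572 to 690) in dura mater D3. In ILC2-like cells it was at 450 (394 to 511) in brain S3, 403 (366 to 444) in dura mater S3 and 626 (580 to 674) in dura mater D3. In each library with at least 20 cells of both, the 2 classes did not differ beyond their counting intervals, with log2 ratios of 0.24 (-0.01 to 0.48), -0.15 (-0.35 to 0.06) and -0.01 (-0.18 to 0.17). Both were higher in dura mater D3 than in S3, by a log2 ratio of 0.50 (0.30 to 0.69) in gamma-delta T-like and 0.63 (0.46 to 0.81) in ILC2-like cells, each short of 2-fold.

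NK/ILC1-like cells were between 123 and 171 in the 4 libraries. T-like cells were at 75.4 (67.5 to 83.8) in brain S3 and at 197 (169 to 228) in brain D3, a log2 ratio of 1.39 (1.11 to 1.65), while those of the dura mater were at 189 and 171. Different clusters made up most of these cells. The cluster led by *Dapl1*, *Lef1* and *Tcf7*, genes of naive T cells, gave 332 of 586 cells in brain S3 and 36 of 131 in brain D3. Within the other T-like cluster, led by *Trac* and *Ifng* among others, *Odc1* was at 118 (103 to 134) and 237 (202 to 277), a log2 ratio of 1.01 (0.71 to 1.31). Granulocyte-like cells held little *Odc1*, between 11.2 and 36.8, as did immature ones, between 10.6 and 36.3.

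*Ass1* separated dendritic cells and T cells from macrophages and granulocytes. In cDC2-like cells it was at 118 (105 to 132) in S3 and 132 (122 to 142) in D3 of the brain, at 97.5 and 89.2 in the dura mater, and between 54.3 and 125 in cDC1-like cells. T-like cells were between 57.7 and 112. Dividing cells, which mix several lineages, were at 199.8 in S3 and 110 in D3 of the brain, and at 157 and 115 in the dura mater. Granulocyte-like cells were between 0 and 9.59, and the 110 and 93 mast-like cells of dura mater S3 and D3 held 0 UMIs.

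The 2 macrophage classes differed in it. Lyve1- cells were at 21.0 (15.9 to 27.1) in brain S3 and 11.0 (7.61 to 15.4) in dura mater D3, and Lyve1+ cells at 3.88 (1.56 to 8.00) and 2.04 (1.23 to 3.18), a log2 ratio of -2.43 in both libraries (-3.81 to -1.30 and -3.32 to -1.58). In brain D3 they were at 13.8 and 13.7, and 1 Lyve1+ cell held 35.7% of that class's UMIs. In Ly6C high monocyte-like cells of the dura mater *Ass1* was at 36.4 (31.1 to 42.3) in D3 and 77.1 (68.5 to 86.4) in S3, a log2 ratio of -1.08 (-1.36 to -0.80). Those of the brain were at 46.3 and 53.1 (-0.20, -0.52 to 0.12).

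In macrophages of the dura mater, 0 of the 3 members with at least 50 UMIs were past 2-fold, where 1.79% of 10357 genes were, and between 0 and 2 members were under other settings. *Arg2* was at 13.7 in D3 and 16.6 in S3 (-0.28, -0.64 to 0.09), *Odc1* at 71.4 and 61.1 (0.23, 0.05 to 0.40) and *Ass1* at 4.27 and 6.79 (-0.67, -1.28 to -0.05). *Arg1* had too few UMIs there to compare, 35 in 772 cells of D3 and 2 in 505 cells of S3. In the brain 1 of 4 members was past 2-fold, where 1.73% of 8916 genes were. It was *Arg1*, at 17.2 in D3 and 0.875 in S3 (4.30, 2.89 to 6.21). T-like and B-like cells together were at 26.3 in that library, but 1 cell held most of their UMIs.

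In microglia-like cells of the brain 3 of 4 members were at least 2-fold higher in D3 and 0 lower, where 4.39% of 10044 genes were higher and 4.37% lower. Besides *Arg1*, *Arg2* was at 9.63 and 3.21 (1.59, 0.82 to 2.45) and *Ass1* at 16.3 and 6.61 (1.30, 0.76 to 1.88). *Odc1* was at 96.1 and 77.2 (0.32, 0.15 to 0.49). The summed level of the 12 immediate-early and heat shock genes was 15344 CPM in these cells of D3 and 29457 in S3, and its part was not tested. For *Arg2*, 61 of 104 UMIs of D3 were in 23 cells with at least 1% granulocyte markers, and the other cells were at 4.21 in D3 and 2.04 in S3. In cDC2-like cells 2 of 4 members in the brain, *Arg1* and *Arg2*, and 0 of 2 in the dura mater were past 2-fold, where 6.07% and 2.36% of all genes were.

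**Figure D4:**
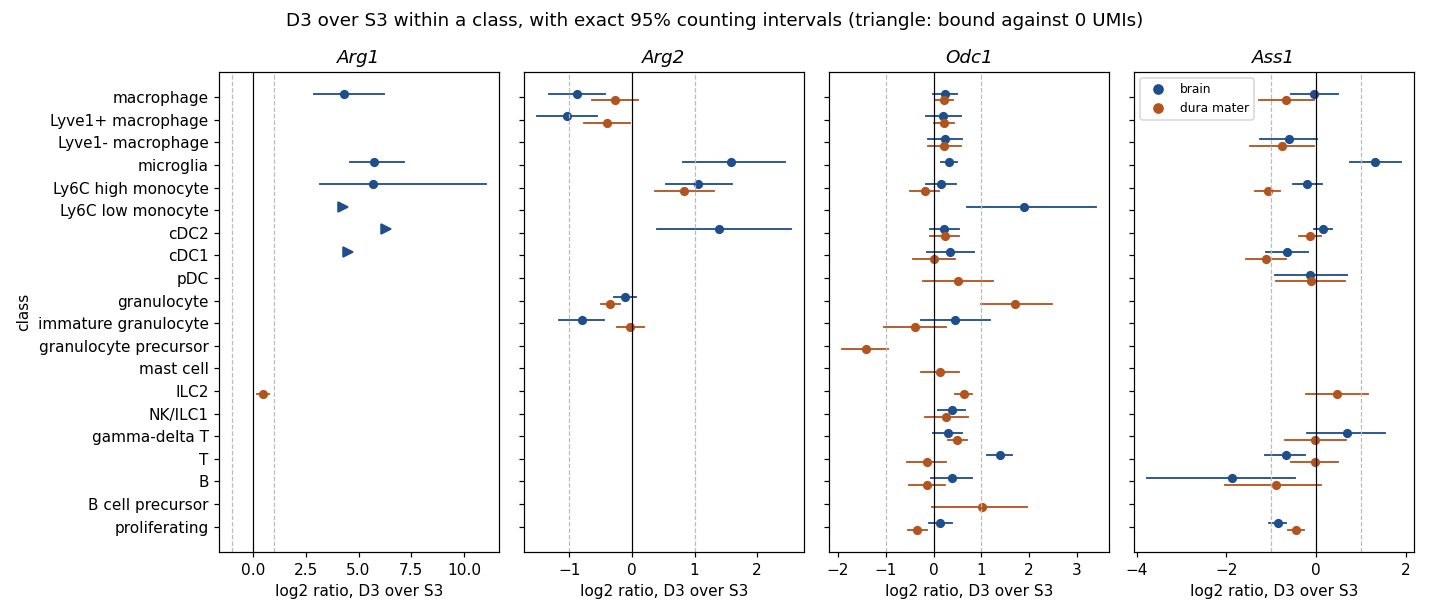
Log2 ratio of the level in D3 over that in S3 (horizontal axis) within each class (rows) for 4 of the genes, with exact 95% counting intervals, dashed lines at 2-fold and triangles for bounds against 0 UMIs, where at least 50 UMIs were counted. *Arg1* ratios lie far to the right in 6 rows of the brain, while most *Odc1* ratios lie within 2-fold of 0.

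Of 40 other genes of arginine, polyamine, proline, creatine and nitric oxide metabolism, 31 had at least 50 UMIs in infiltrating-like macrophages of brain D3 and macrophages of brain S3 together. Of these, 3 were at least 2-fold higher, 2 at least 2-fold lower and 26 within 2-fold, with a median log2 ratio of 0.20 against -0.16 over all genes compared, of which 7.45% were higher and 15.5% lower by that much. The 3 were *Slc6a8*, the creatine transporter, at 66.7 against 1.53 (5.44, 4.40 to 6.76), *Slc7a7*, a subunit that exchanges arginine across the membrane, at 77.0 against 36.5 (1.07, 0.85 to 1.31), and *Gch1*, the first enzyme of tetrahydrobiopterin synthesis, at 59.9 against 29.5 (1.02, 0.77 to 1.28). Those lower were *Ddah2*, named for the breakdown of methylated arginines, at 6.2 against 17.1 (-1.46, -1.84 to -1.07), and *Prodh*, proline dehydrogenase, at 2.15 against 5.47 (-1.35, -2.02 to -0.63). Polyamine enzymes after *Odc1*, such as *Srm*, spermidine synthase, at 29.5 against 17.5 (0.75, 0.42 to 1.10), and *Sms*, spermine synthase, at 27.2 against 32.2 (-0.24, -0.50 to 0.02), stayed within 2-fold. *Slc7a1*, the other main arginine importer, was at 8.82 against 11.8 (-0.42, -0.84 to 0.03).

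Against Ly6C high monocyte-like cells of brain D3, 6 of the 31 were at least 2-fold higher and 0 lower, with a median log2 ratio of 0.23 against 0.06 over all genes, of which 15.2% were higher and 7.27% lower. The largest 4 were *Slc6a8* at 66.7 against 0.601 (6.79, 4.94 to 9.84), *Gatm*, the first enzyme of creatine synthesis from arginine, at 120 against 12.3 (3.28, 2.84 to 3.76), *Paox*, polyamine oxidase, at 68.7 against 14.4 (2.25, 1.84 to 2.70), and *Ddah2* at 6.2 against 2.10 (1.56, 0.49 to 2.89). *Slc7a7* was at 77.0 against 31.8 (1.27, 0.99 to 1.57). *Slc6a8* and *Slc7a7* were thus past 2-fold in both comparisons, while *Gatm* was at 187 in macrophages of brain S3, above its level in infiltrating-like cells. In microglia-like cells, 1 of 29 was at least 2-fold higher in D3 than in S3, where 4.39% of all genes were (*Azin2*, an antizyme inhibitor, at 4.08 against 1.60), and in dura mater macrophages 0 of 29 were past 2-fold, where 1.79% were.

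**Figure D5:**
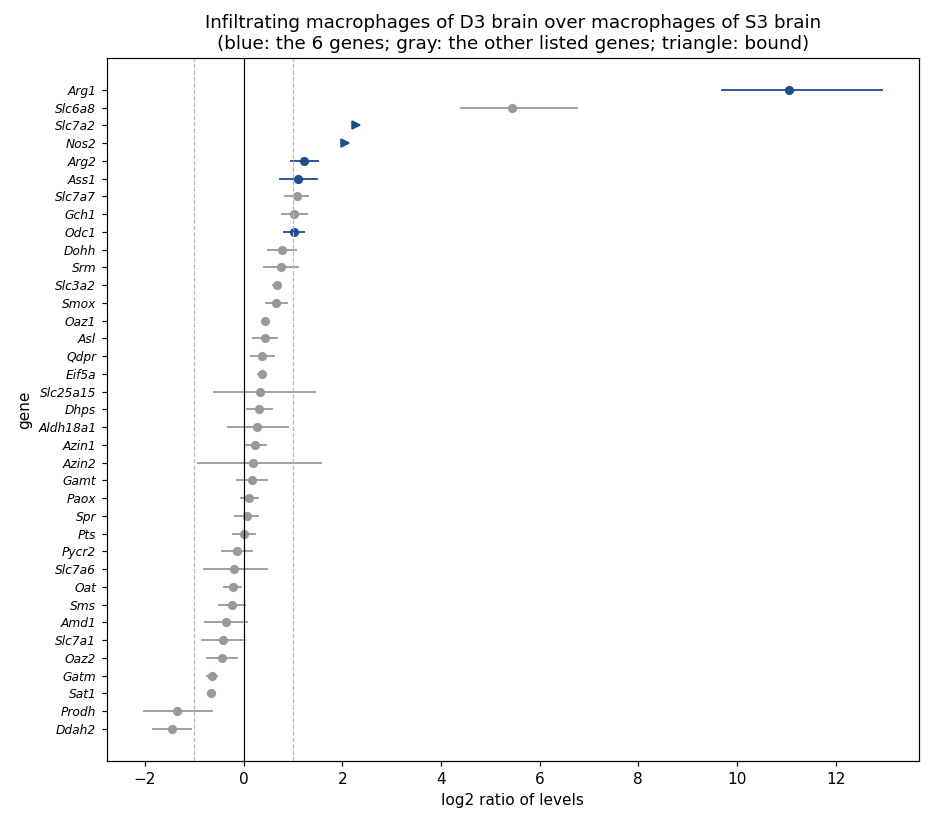
Log2 ratio of levels in infiltrating-like macrophages of brain D3 over macrophages of brain S3 (horizontal axis) for the 6 genes (blue) and the 31 other listed genes (gray) with at least 50 UMIs, with exact 95% counting intervals, dashed lines at 2-fold and triangles for bounds against 0 UMIs. *Arg1* at 11.05 and *Slc6a8* at 5.44 stand apart, and 26 of the 31 gray points lie between the dashed lines.

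Across the 58 units of a class in a library with at least 50 cells, the genes whose levels ran most like those of a member were found by Pearson correlation of log2(CPM + 1) among 10736 genes with at least 500 UMIs. For *Arg1* they were *Hilpda* (r = 0.70), *Gpnmb* (0.65) and *Htr2b* (0.62), and for *Arg2* *Clec4d* (0.93), *Mmp8* (0.91) and AC110211.1 (0.91). For *Odc1* they were *Xlr4b* (0.88), *Dad1* (0.88) and *Eprs* (0.87), and for *Ass1* *Lrrc42* (0.86), *Uck2* (0.84) and *Rplp0* (0.84). *Nos2* and *Slc7a2* had no gene above 0.60 and 0.52, in counts too sparse for the order to be read. Among the members themselves *Arg1* and *Arg2* had r = -0.07, and *Arg2* and *Odc1* had -0.69. The units of a library come from 1 preparation, so these values are a description.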

How the data were processed

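The authors sorted CD45+ cells, made 10x Chromium 3′ v3 libraries, mapped reads to mm10 with Cell Ranger 3.1.0 and normalized in Seurat 3.1.0, per the labels and the study's methods. The authors deposited natural log values, ln(1 + 10000 x share), where the share is that of a gene in its cell's UMIs. UMIs were recovered from them (whole within 1e-06), on the premise that a cell's smallest value is 1 UMI.

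The filter kept cells with over 1000 and under 6000 genes and a mitochondrial share of no more than 7%. Scrublet (scanpy 1.11.5) scored doublets. Its threshold marked under 0.5%, so the highest scores were removed at 0.8% per 1000 barcodes. Pairs of libraries shared 3 to 11 barcodes. Kept UMIs were 37522305 to 72439909 per library.

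Clustering used Seurat 5.3.0 (2490 variable genes, with the members and 40 pathway genes left out, 30 components, resolution 0.6). Clusters were named from marker lists, and 4 of 28 stayed unnamed. The members, lists and comparisons were chosen with earlier results of these data known. Genes named are the 6 members, up to 4 pathway genes past 2-fold in each direction, and the 3 genes most alike in pattern. Other names mark classes or were picked by hand. *Srm*, *Sms* and *Slc7a1* were named after their values were seen. No test was run, since each condition has 1 library. Ratio intervals were checked on counts simulated from the Poisson model they assume. That simulation held no cells, so it cannot show how they hold where few cells carry most UMIs. Alternatives covered filters, doublets, clustering, depth, free RNA and the fold.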

Additional observations from a re-analysis of the deposited data

How the results depend on the processing

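Of 80 values recomputed under 10 other settings chosen at the start and 1 added after seeing the data, 50 stayed within the counting interval or count range of the value reported, 28 moved outside it and 2 changed sign. The *Arg1* log2 ratio of infiltrating-like macrophages of brain D3 over macrophages of brain S3 (11.05) ranged from 8.88 to 11.55, with 9.42 where each cell was placed by its own markers without clusters and a bound of at least 8.88 with cells thinned to 2000 UMIs. Over Ly6C high monocyte-like cells (6.82) it was 4.71 at clustering resolution 0.3, 4.30 without the filter on cells, 1.88 with cells placed by their own markers, 8.27 thinned, and at least 10.99 with the rate in T-like and B-like cells subtracted. The *Arg2* ratio (1.23) was 3.58 at resolution 1.2, 4.21 without the filter, 2.30 by own markers, 1.51 thinned, 1.68 as the mean over cells, and 6.87 without cells that had granulocyte markers at 1% of their UMIs or more. The *Nos2* ratio over monocytes (at least 1.59) was -1.50 at resolution 0.3 and -1.11 by own markers. The *Odc1* ratio (1.02) was 0.68 at resolution 0.3, 0.69 with doublets kept, 0.75 by own markers and 0.83 thinned. The *Ass1* ratio (1.09) was 0.63 at resolution 1.2, 0.34 by own markers, 1.66 thinned and 1.91 as the mean over cells. The members at least 2-fold higher (6) were 3 of 4 compared with thinned cells, and 4 to 6 elsewhere. In dura mater macrophages (0) there was 1 at resolutions 0.3 and 1.2, without the filter, by own markers and at 1.5-fold, and 2 with doublets kept. Where the cells of a class change, the monocytes by own markers were 377 cells in place of 237, and beyond such counts the cause was not tested. The thinned *Nos2* and *Slc7a2* ratios gave no value, since the infiltrating-like level was at or under the floor of the other class. *Odc1* and *Ass1* with the lymphocyte rate subtracted had both levels at or under the floor and gave none. That rate is no measure of free RNA for them, since T-like cells of brain D3 held them at 197 and 57.7. No paired analysis was possible because each condition has 1 library. Depth limits *Nos2* and *Slc7a2* most.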

Other observations

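The few infiltrating-like cells of the S3 libraries, too few for a level in the report, were unlike those of brain D3 in *Ass1*. It was at 355 CPM (285 to 436) in the 10 cells of brain S3, in 9 of them, and at 240 (190 to 299) in the 15 cells of dura mater S3, in 12 of them, against 30.4 in brain D3. The 19 ILC2-like cells of brain D3 held *Odc1* at 759 (603 to 942), in 14 cells, and 1 cell held 31 of the 82 UMIs.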
